A study of Mus musculus with 4 samples.

Results

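The regions described here are stretches of open chromatin that lay between protein-coding genes but near one. Peaks of all 4 deposited ATAC-seq lists on chromosomes 1 to 19 and X were merged wherever they overlapped, which gave 15316 regions, and 11994 of these had a peak in at least 2 libraries. A region was kept if its middle lay outside every protein-coding gene span of the GRCm38 RefSeq annotation and between 1 kb and 100 kb from the nearest end of such a gene. The rule found 1798 regions. It used peak calls, which are themselves a threshold on accessibility, but no level above that and no comparison of genotypes. Through the calls, 145 regions entered by the knockout alone and 85 by wild type alone. Of the other regions, 6842 had their middle less than 1 kb from a gene end, 2976 lay inside a gene and 378 lay more than 100 kb from any gene.

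The study asked how loss of Chd7 affects chromatin accessibility in G1ER cells. G1ER is a mouse erythroblast line that lacks its own GATA1 and carries a GATA1 fused to an estrogen receptor domain, so that GATA1 activity can be switched on. No treatment was given here. Both groups were grown in IMDM with serum, erythropoietin (EPO) and stem cell factor (SCF). Wild-type cells (2 libraries) were compared with Chd7-/- cells (2 libraries), each from 50000 cells. Replicate 1 of each genotype is labelled 1 h and replicate 2 is labelled 2 h; the protocol gives the same limits for the transposase step. Both knockout libraries carry the same clone code, so genotype and clone cannot be told apart. Nothing says that replicates came from separate cultures, so p-values measure the spread between these libraries, which may be technical.

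Open chromatin away from gene starts often marks enhancers, stretches of DNA where transcription factors bind and raise transcription of a gene that may lie many kilobases away. In erythroid cells, GATA1, TAL1, KLF1 and RUNX1 bind such elements, among them the beta-globin locus control region and distal elements of Myb and Gata2. CHD7 is an ATP-dependent chromatin remodeller of the CHD family that is known to bind distal enhancers as well as promoters. A region's accessibility says nothing by itself about which gene it controls, and the nearest gene end is used below only as a name and an address.

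Some of these regions hold the start of a non-coding gene, and those starts are the places where a sequence could be set beside the accessibility. Of 1742 regions on the chromosomes covered by the RefSeq promoter table, 130 (7.46%) held the start of a long non-coding RNA (lncRNA) gene, 32 (1.84%) held a transfer RNA (tRNA) gene and no such start, and 1580 (90.7%) held neither. The starts belonged to 138 genes with 158 windows of 300 bases, each running from 250 bases before to 50 after the start. The 6 windows below are shown because they span the outcomes: 3 regions called in all 4 libraries, 2 called only in wild type and 1 called only in the knockout. They are from RefSeq on GRCm38, 5′ to 3′ on the gene's strand, with capitals where GATA letters (AGATAA or TGATAA) or RUNX letters (TGTGGT) occur on either strand. The 3 regions called in all 4 libraries each show RUNX letters, which 15.2% of the 158 windows held. The 6 windows therefore say nothing on how letters relate to calls.
Chaserr (all 4 libraries, chr7:73558346-73558645, minus strand): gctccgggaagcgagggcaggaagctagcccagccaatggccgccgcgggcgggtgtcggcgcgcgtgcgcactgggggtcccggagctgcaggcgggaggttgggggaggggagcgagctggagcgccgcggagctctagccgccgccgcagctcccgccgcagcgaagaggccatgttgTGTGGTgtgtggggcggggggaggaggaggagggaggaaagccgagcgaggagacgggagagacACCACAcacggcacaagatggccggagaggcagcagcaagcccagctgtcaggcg
Mir22hg (all 4 libraries, chr11:75461289-75461588, plus strand): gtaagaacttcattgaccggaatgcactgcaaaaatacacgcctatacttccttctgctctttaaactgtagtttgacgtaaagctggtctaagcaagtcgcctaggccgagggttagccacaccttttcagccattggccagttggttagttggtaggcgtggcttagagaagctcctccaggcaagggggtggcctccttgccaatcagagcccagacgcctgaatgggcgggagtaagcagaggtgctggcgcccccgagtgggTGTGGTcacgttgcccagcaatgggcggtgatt
Snhg8 (all 4 libraries, chr3:123508287-123508586, minus strand): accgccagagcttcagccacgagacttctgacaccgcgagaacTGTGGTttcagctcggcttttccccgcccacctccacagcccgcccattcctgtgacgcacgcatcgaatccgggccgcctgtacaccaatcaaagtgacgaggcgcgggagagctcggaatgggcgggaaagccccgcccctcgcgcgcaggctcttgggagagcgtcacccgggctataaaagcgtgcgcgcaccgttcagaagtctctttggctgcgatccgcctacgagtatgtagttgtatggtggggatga
9330159M07Rik (wild type only, chr9:88858821-88859120, minus strand): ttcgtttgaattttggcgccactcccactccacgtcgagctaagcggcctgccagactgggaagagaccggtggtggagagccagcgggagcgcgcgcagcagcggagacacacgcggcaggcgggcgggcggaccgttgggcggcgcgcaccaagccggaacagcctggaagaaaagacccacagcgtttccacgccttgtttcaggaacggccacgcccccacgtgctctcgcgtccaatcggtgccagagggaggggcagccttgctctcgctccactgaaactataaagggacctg
Snhg3 (wild type only, chr4:132353637-132353936, minus strand): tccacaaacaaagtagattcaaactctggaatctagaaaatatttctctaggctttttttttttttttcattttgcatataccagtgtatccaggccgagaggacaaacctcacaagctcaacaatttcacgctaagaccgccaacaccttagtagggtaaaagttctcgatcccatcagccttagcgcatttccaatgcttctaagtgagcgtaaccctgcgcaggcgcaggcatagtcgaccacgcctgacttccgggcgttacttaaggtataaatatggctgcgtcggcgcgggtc
Gm40716 (knockout only, chr10:80475331-80475630, minus strand): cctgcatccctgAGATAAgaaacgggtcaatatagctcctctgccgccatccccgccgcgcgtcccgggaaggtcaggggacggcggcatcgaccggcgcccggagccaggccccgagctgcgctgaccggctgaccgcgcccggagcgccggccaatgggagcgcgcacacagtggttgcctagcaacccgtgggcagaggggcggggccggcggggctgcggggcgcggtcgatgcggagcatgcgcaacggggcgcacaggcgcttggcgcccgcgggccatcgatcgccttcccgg

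Chaserr is a lncRNA transcribed beside Chd2, another CHD-family remodeller gene, and its window held the RUNX letters on both strands, 2 matches in all. Its region, chr7:73558299-73558999, had summit pileups of 44 and 60 in wild type against 61 and 53 in the knockout. Pileup is the number of fragments stacked at the peak's highest point, recovered here from the deposited fold enrichment and p-value. The genotypes overlapped at Chaserr, and the log2 change was 0.22 (adjusted p = 0.671, limma). Mir22hg, the host transcript of miR-22, had pileups of 47 and 48 in wild type against 43 and 40 in the knockout (log2 change -0.11, adjusted p = 0.898). Snhg8, a small nucleolar RNA host gene, had 51 and 63 against 61 and 58 (log2 change 0.15, adjusted p = 0.806).

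The start of 9330159M07Rik, near Trim43c, was called at a pileup of 21 and 27 in the wild-type libraries and in neither knockout library. It was the strongest of the regions called only in wild type. Snhg3, which also hosts a small nucleolar RNA and lies near Phactr4, was called at 13 and 18 in wild type only. Gm40716, near Onecut3, was the only lncRNA start called in the knockout alone, at 10 and 14, and its window held a GATA match. No value exists for a library in which a region was not called, so these 3 have no fold change or test.

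Across the 158 windows, GATA letters were in 26.6%, against 23.7% of the 11575 windows of all non-coding genes and 18.6% of all 32851 windows in the table. RUNX letters were in 15.2%, against 20.1% and 16.8%. The E-box letters CAGCTG or CAGATG were in 21.5% against 35.5% and 30.6%. The ETS letters AGGAAG were in 39.9%, against 37.1% of non-coding windows, the AP-1 letters TGANTCA in 13.3% against 9.31%, and the KLF letters CCACACCC in 5.06% against 3.45%. Both strands were searched for each motif. Some genes had more than 1 window and these can overlap, so the same site can be counted more than once. The windows in these regions were also richer in G and C (median 55.3%, against 48.3% for all non-coding windows) and in CG pairs (median 13 against 4), and the shares were not matched on base composition.

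MicroRNA genes gave the second kind of sequence. In all, 16 hairpins, with 28 mature microRNAs, lay within 5 kb of 9 of the regions. The ones below are shown because they come from erythroid or proliferation-linked loci; capitals mark the seed, bases 2 to 8, which pairs with target mRNAs, and the sequences are from RefSeq.
miR-144-3p: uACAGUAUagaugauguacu
miR-451a: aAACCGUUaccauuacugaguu
miR-22-3p: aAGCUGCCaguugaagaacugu
miR-210-3p: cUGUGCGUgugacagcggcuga
let-7i-5p: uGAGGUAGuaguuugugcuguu
miR-17-5p: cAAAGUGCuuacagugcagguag
miR-20a-5p: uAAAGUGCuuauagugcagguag
miR-18a-5p: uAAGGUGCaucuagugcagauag
miR-19a-3p: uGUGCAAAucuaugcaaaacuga
miR-19b-3p: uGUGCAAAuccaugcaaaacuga
miR-92a-3p: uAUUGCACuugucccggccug

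miR-144 and miR-451a come from a locus that GATA1 activates in erythroid cells. A region at chr11:78069687-78070061, 2944 bases from the miR-144 hairpin, had pileups of 11 and 13 in wild type against 14 and 15 in the knockout, a log2 change of 0.34 (adjusted p = 0.776). The knockout values lay above the wild-type values by 1 to 4 fragments and the test was not passed. With each library centred on its median, this order was found at 21.4% of all 8698 regions called in every library. The miR-17-92 cluster, a set of growth-promoting microRNAs, lay 1077 bases from a region at chr14:115041897-115042594. In that cluster miR-17-5p and miR-20a-5p share the seed AAAGUGC, and miR-19a-3p and miR-19b-3p share GUGCAAA; the remaining microRNAs had a seed of their own. Its region had pileups of 31 and 28 in wild type against 34 and 22 in the knockout, a log2 change of -0.02 (adjusted p = 0.988), and the genotypes overlapped.

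The let-7i hairpin lay inside its region, chr10:122985626-122986597, with pileups of 24 and 30 against 27 and 24 (log2 change 0.01, adjusted p = 0.994). The region beside miR-210, a microRNA induced by low oxygen, had 49 and 52 against 48 and 41 (log2 change -0.10, adjusted p = 0.902). A pair of less studied loci had higher readings in both knockout libraries without passing the test. Mir1892 had 14 and 13 against 24 and 21 (log2 change 0.78, adjusted p = 0.29, limma). Mir760, whose region also lay over a tRNA gene, had 13 and 11 against 23 and 15 (log2 change 0.68, adjusted p = 0.44, limma). After centring, both knockout libraries stood above both wild-type libraries at 28.9% of the 947 regions between genes called in all 4, and at 21.4% of all 8698. The region at Mir7671, near Irf1, was called in 3 libraries, at 20 and 15 in wild type and 8 in the first knockout library. None of the 8 microRNA regions called in all 4 libraries passed the threshold of an adjusted p of 0.05.

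The 4 lists held between 11074 and 12431 peaks on the chromosomes used, and called, of the 1798 regions, 1349 and 1502 in wild type and 1569 and 1440 (up to 87.3%) in the knockout. The number of reads per library is unknown. The lowest background recovered from each list, a stand-in for relative depth, ranged from 73.1% of the highest in the first wild-type library to 100% in the second, with the knockout libraries at 96.2% and 93.9%. As a check of the cell type, 20 of 41 genes of the erythroid programme had an open gene end, 16 of them in all 4 libraries. None of 20 lymphoid genes had one. The counts were 1 of 18 granulocyte and macrophage, 2 of 16 megakaryocyte, 1 of 11 mast cell and 2 of 16 stem and progenitor genes. Other lists gave 14 of 18 housekeeping, 19 of 27 cell cycle, 23 of 31 chromatin and 16 of 25 cytokine signalling genes. Of 43 haematopoietic transcription factors and cofactors, 18 had one. The check thus sets the erythroid list apart only from the other lineage lists.

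Regions between genes were weaker and narrower than regions at gene ends. Their median peak width was 332 to 363.5 bases per library, against 489 to 542 bases at gene ends. Their median fold enrichment over local background was 6.46 to 6.82, against 8.85 to 9.49, both the authors' values within each list. In percentile of fold enrichment within its own list, the median region stood at 34.6 to 38.7, gene ends at 63.3 to 66.0, intragenic regions at 37.4 to 41.8 and regions beyond 100 kb at 36.4 to 43.3. In rank the set lay nearer to intragenic regions than to gene ends, as the plot of rank by place shows.

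**Figure D1:**
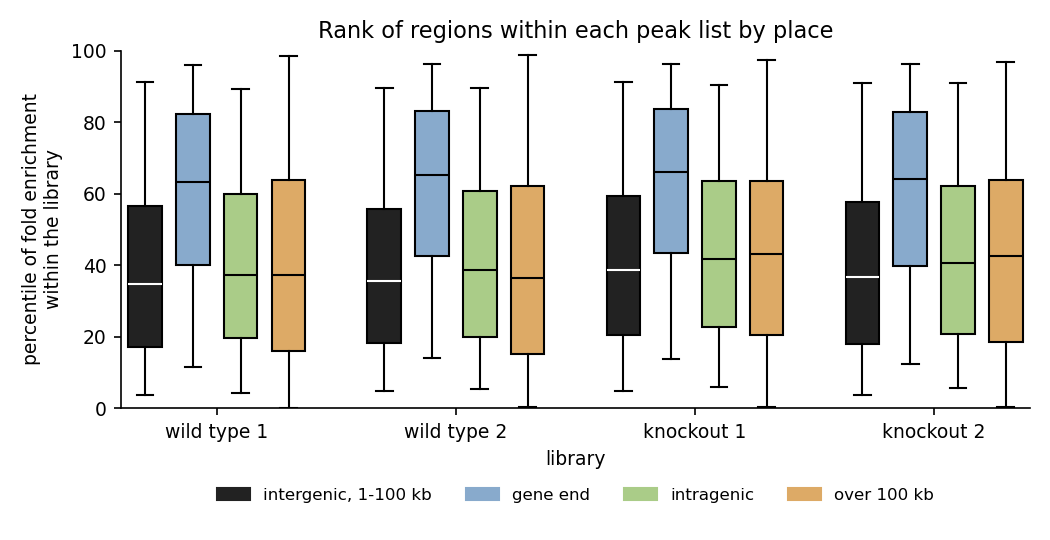
Percentile of fold enrichment within each library's own peak list (vertical axis, 0 to 100) for the 4 libraries (horizontal axis), by place of the region relative to protein-coding genes; boxes are quartiles with the median and whiskers run from the 5th to the 95th percentile of regions. The intergenic medians lie between 34.6 and 38.7 and the gene-end medians between 63.3 and 66.0.

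A small group stood at the very top. Of the 111 to 125 peaks in the top 1% of each list, 27 or 28 lay in these regions, which is 22.4% to 24.6%, whereas the regions held 12.3% to 12.8% of all peaks. Regions beyond 100 kb held 12 to 15 of the same top peaks and 2.59% to 2.80% of all peaks, so this was not particular to the set. The strength of a region is defined here as its lowest percentile over the libraries that called it, and 24 regions had a strength above 99. These were compact, with a median width of 410.5 bases, and 3 of the 24 overlapped a non-coding gene. Their highest pileup divided by their lowest across the 4 libraries had a median of 1.14, against 1.5 over all 947 regions called in all 4. Pileups ran from 39 to 310 in the 24 and from 7 to 396 in the 947. Ratios of small counts vary more and the sets were not matched on pileup, so these medians do not measure stability.

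The strongest region, chr16:98107443-98107853, lay 90892 bases from B230307C23Rik and had pileups of 138 and 144 in wild type against 136 and 137 in the knockout. The highest pileups among the 10 strongest were at chr9:35305133-35305676, 29447 bases from Rpusd4, with 289 and 310 against 306 and 291. The region at chr13:120321355-120321727, 3280 bases from Tcstv3, had 117 and 122 against 118 and 114. In each of the 3 the genotypes overlapped or nearly did. The other 7 of the 10 lay near Asmt (94, 98, 109 and 96 in the order wild type 1, wild type 2, knockout 1, knockout 2), Abcb11 (93, 96, 99, 99), Dpy19l2 (78, 83, 84, 80), Pak3 (58, 63, 69, 64), Rimbp3 (96, 121, 117, 97), Epm2a (85, 88, 98, 84) and Tmem196 (154, 175, 173, 160). Several of these genes are known for roles in testis, liver or brain rather than in red cells. Whether the lists were filtered for known artefact regions is not given in the sources used here.

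Distances to the nearest gene end ran from 1007 to 99496 bases with a median of 14901 bases and quartiles of 6023.5 and 33485.25 bases. Regions were most numerous between 5 and 20 kb (694), followed by 20 to 50 kb (478), 1 to 5 kb (370) and 50 to 100 kb (256). Their nearest genes numbered 1405: 1124 were linked to a single region, 204 to 2, 55 to 3, 13 to 4, 5 to 5 and 4 to 6. Of the linked genes, 701 (49.9%) also had an open gene end, against 7827 of all 21631 protein-coding genes (36.2%). The side was known for 1415 regions, and 740 of them (52.3%) lay on the start side of the gene. That share was 42.1% at 1 to 5 kb, 50.7% at 5 to 20 kb, 58.7% at 20 to 50 kb and 59.3% at 50 to 100 kb. Another region lay within 12.5 kb of 702 of them (39.0%).

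At the edges of the rule, the regions just inside 1 kb were near Flt3l (1007 bases), Hs2st1 (1018) and Ankra2 (1034), and those just outside were near Gtf3c6 (988), Smad6 (972) and Tmtc2 (967). Just inside 100 kb were the regions near Cst10 (99496), 4930544G11Rik (98588) and Unc13c (98370). Just outside were those near Ttc8 (101136), Esp38 (102067) and Icos (102307).

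Most regions were called in both genotypes. All 4 libraries called 947 (52.7%), exactly 3 called 370 (20.6%) and 1 library of each genotype called 251 (14.0%). The 2 knockout libraries alone called 145 (8.07%), and the 2 wild-type libraries alone called 85 (4.73%). Over all 11994 regions the corresponding background was 72.5% in all 4, 3.46% knockout only and 2.88% wild type only. At gene ends, 84.7% were called in all 4, with 75 regions (1.10%) knockout only and 128 (1.87%) wild type only. Inside genes, 162 (5.44%) were knockout only and 121 (4.07%) wild type only; beyond 100 kb the counts were 33 (8.73%) and 12 (3.18%). Regions called in 1 genotype only were thus a larger share between genes than at gene ends for both genotypes. The shares had the opposite order at gene ends, as the plot of calls by place shows; these are counts with no test over regions, and the number of peaks per list also differed.

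**Figure D2:**
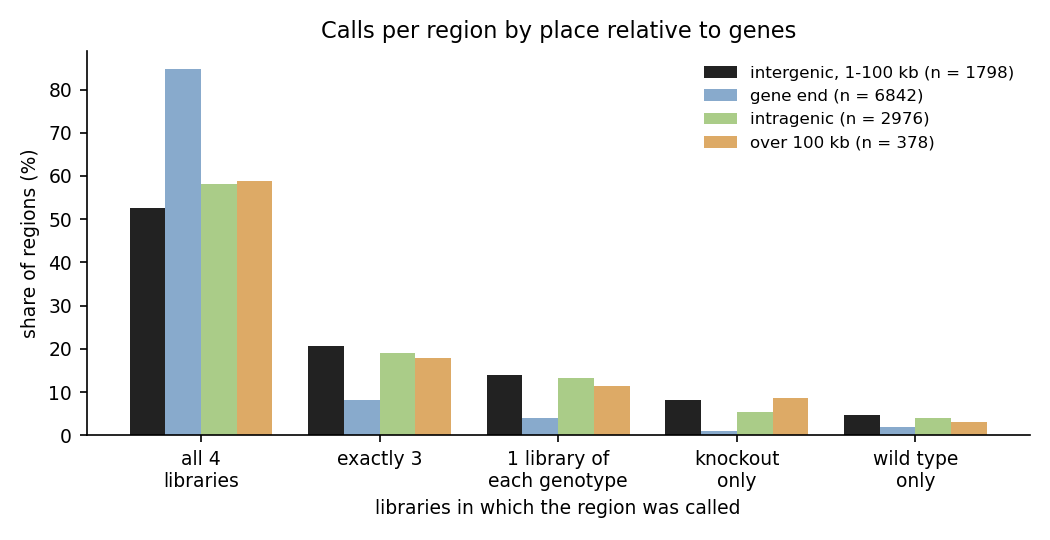
Share of regions (vertical axis, %) called in all 4 libraries, in exactly 3, in 1 library of each genotype, in both knockout libraries only or in both wild-type libraries only (horizontal axis), for 4 places relative to protein-coding genes. Intergenic regions were called in all 4 libraries in 52.7% of cases and gene ends in 84.7%.

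The knockout-only count was above the wild-type-only count in each distance bin. It was 27 against 22 at 1 to 5 kb (7.30% and 5.95%), 55 against 36 at 5 to 20 kb (7.93% and 5.19%), 40 against 21 at 20 to 50 kb (8.37% and 4.39%), and 23 against 6 at 50 to 100 kb (8.98% and 2.34%). The median distance was 15423 bases for knockout-only and 11327 bases for wild-type-only regions. Both classes were weak: the median strength was 14.1 and 10.7, against 29.6 for regions called in all 4 libraries, and the median width 327 and 342 bases against 534. Knockout-only pileups ran from 7 to 26 and wild-type-only pileups from 7 to 31. Only 2 of the 145 and 1 of the 85 stood above the middle of the lists that called them. With a minimum of 5 for the −log10 q in the calling genotype, 50 knockout-only and 36 wild-type-only regions were left. The order of the 2 counts turned without wild-type replicate 1, when 209 regions were knockout only and 326 wild type only. It was 287 against 239 without wild-type replicate 2, 356 against 200 without knockout replicate 1 and 546 against 136 without knockout replicate 2. In each of these settings the genotype left with 1 library needed a call in that library alone.

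**Figure D3:**
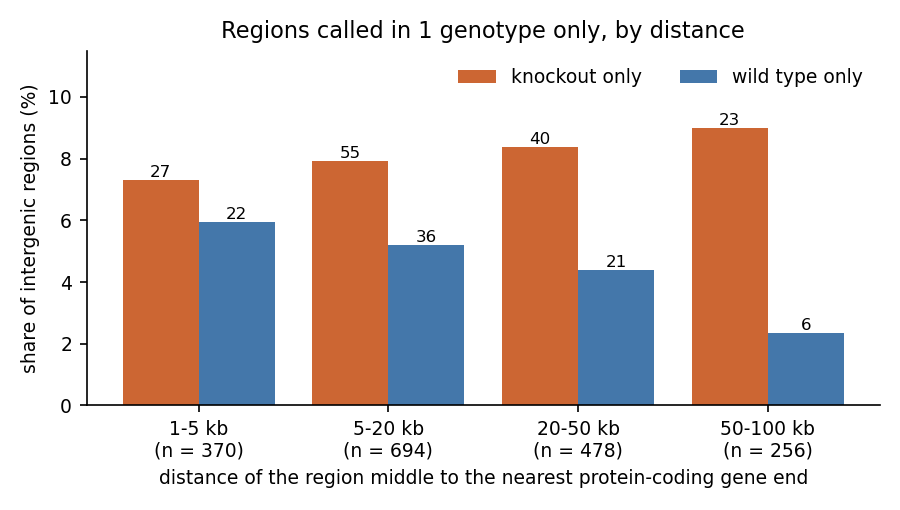
Share of intergenic regions (vertical axis, %) called only in both knockout libraries or only in both wild-type libraries, in 4 bins of distance from the region middle to the nearest protein-coding gene end (horizontal axis); the number over each bar is the count of regions. Knockout-only bars run from 7.30% to 8.98% and wild-type-only bars from 5.95% to 2.34%.

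The strongest knockout-only region, chr19:38410309-38410886, lay 4990 bases from Slc35g1, a membrane transporter gene, with pileups of 16 and 17. The next lay 26128 bases from Cpeb4, which encodes an RNA-binding regulator of translation, with 18 and 16. The others among the 5 strongest lay near Lrrc6, needed to assemble ciliary dynein (16 and 17), Fbxo11, part of a ubiquitin ligase (15 and 14), and Frrs1, a ferric reductase (16 and 16). A region missing from a list has no value there, which is not a value of 0. Among wild-type-only regions, Trim43c (21 and 27) was followed by a region 8029 bases from Ets2, an ETS-family transcription factor, with 14 and 18. Fcgr3, an Fc receptor of myeloid cells, had 15 and 14 at 22804 bases, Zfp608, a zinc finger gene, 13 and 17, and Phactr4, at the Snhg3 start, 13 and 18. The 145 knockout-only regions were linked to 144 genes and the 85 wild-type-only regions to 85, of which 4 were linked to both: Cdc7, D10Wsu102e, Eif4g2 and Mrto4. Another region within 12.5 kb was found for 29.7% of the knockout-only and 52.9% of the wild-type-only regions.

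Non-coding starts were spread unevenly over these classes. Of the 130 regions with a lncRNA start, 68.5% were called in all 4 libraries, 5 in wild type only and 1 in the knockout only. They were wider than the 1580 regions with neither annotation (median width 581.5 against 423 bases) and stronger (median strength 33.9 against 17.8). Of the 38 regions over tRNA genes, 19 were called in all 4 libraries, 2 in the knockout only and 2 in wild type only. The strongest of these, 6465 bases from Rab11fip4 and over a threonine tRNA gene, had 24 and 28 in wild type and 26 and 26 in the knockout. No lncRNA start (of 89 tested) and no tRNA region (of 19 tested) passed the pileup test; their median log2 changes were 0.03 and 0.14.

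Levels were compared where all 4 libraries had a value. Pileups were put on a log2(pileup + 1) scale, each library was centred on its median, and limma was fitted to all 8698 regions called in every library. Of the 947 tested between genes, 8 were higher in the knockout and 1 was lower at an adjusted p below 0.05 (Benjamini-Hochberg over all 8698). That is 0.95% of the set. The background over all regions, these included, was 0.195% in either direction, 0.172% higher (15 regions) and 0.023% lower (2 regions). By place the share in either direction was 0.0345% at gene ends, 0.289% inside genes and 0.45% beyond 100 kb. At an unadjusted p below 0.05 (limma) there were 119 of the 947, against 776 of all 8698 (8.92%). The counts were 420 of 5798 at gene ends, 203 of 1731 inside genes and 34 of 222 beyond 100 kb. On simulated pileups of these 8698 regions, the fit recovered 34% of regions changed by 2-fold and 83% of those changed by 3-fold. The simulated spread was a set value, not one estimated from these libraries. The changed regions were drawn from all places, mostly gene ends, where pileups were higher. How many changes were missed between genes is therefore unknown.

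The largest change was at chr5:70704383-70705050, 46331 bases from Gabrg1, which encodes a subunit of a neuronal GABA receptor. Its pileups were 9 and 12 in wild type and 37 and 25 in the knockout, a log2 change of 1.54 ± 0.28 (SE, adjusted p = 0.00126, limma). No other region lay within 100 kb of it. The second was at chr8:11091772-11092708, on the start side of Irs2 at 83311 bases, with 11 and 16 against 33 and 36 (log2 change 1.39 ± 0.26, adjusted p = 0.00142). Irs2 encodes an adaptor that carries insulin, IGF and cytokine signals to PI3 kinase. In both regions each knockout library stood above both wild-type libraries. Both regions were picked by the test on these same values, so this separation adds no support.

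The one lower region, chr6:125088758-125089677, lay 3088 bases past the end of Lpar5, a receptor for lysophosphatidic acid. Its pileups were 42 and 42 in wild type and 23 and 13 in the knockout, a log2 change of -1.15 ± 0.22 (adjusted p = 0.00297, limma). A neighbouring region, with its middle 745 bases away, was called in 3 libraries at 38 and 29 in wild type and 16 in the first knockout library, the same order. At the Lpar5 region the recovered local background was also lower in the knockout, 4.32 and 4.06 against 2.74 and 2.16.

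A pair of the remaining higher regions were strong. Near Shoc1, a meiotic crossover gene (chr4:59157149-59157961, 18572 bases), pileups were 20 and 33 in wild type and 57 and 39 in the knockout (log2 change 0.93 ± 0.19, adjusted p = 0.0032, limma). Near Phactr4, a regulator of actin and of protein phosphatase 1 (chr4:132427849-132428513, 5735 bases, start side), they were 22 and 25 against 56 and 35 (log2 change 0.97 ± 0.20, adjusted p = 0.0032). Phactr4 thus had a region higher in the knockout on its start side and, past its other end, the wild-type-only region at Snhg3. In each case the first knockout library gave the highest value.

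The other 4 had adjusted p-values between 0.0223 and 0.0316. A region 18314 bases from Olfr263, an olfactory receptor gene (chr13:21114144-21114783), had 8 and 10 against 21 and 21. One near Khdc1a, within the non-coding gene Gm21909 (chr1:21333509-21334010), had 11 and 22 against 31 and 33. Of these, the Olfr263 region was low in both wild-type libraries and the Khdc1a region in the first. The region 1151 bases from Bcl2l13, a mitochondrial BCL2-family gene (chr6:120834753-120835358), had 17 and 23 against 39 and 34. The region 6222 bases from 4930432M17Rik (chr3:121688958-121689450) had 17 and 18 against 31 and 37. The plot of pileup by library shows that the genotypes did not overlap at any of the 9. The 9 were picked by the test on these same values, so this separation adds no support. On the centred scale, both knockout libraries stood above both wild-type libraries at 21.4% of all 8698 regions and below at 17.3%. None of the 9 held the start of a non-coding gene or a tRNA gene.

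**Figure D4:**
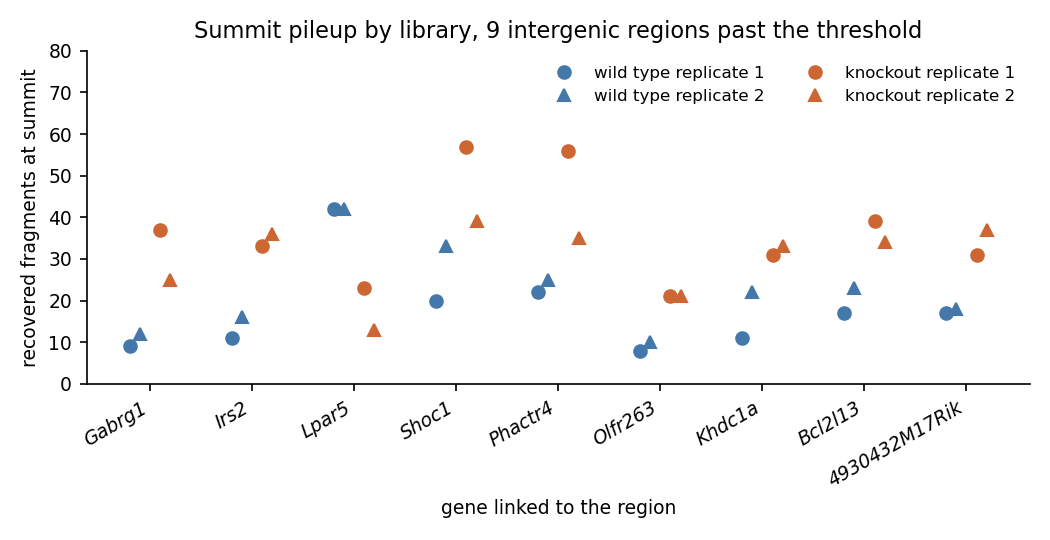
Recovered fragments at the summit (vertical axis) in each library for the 9 intergenic regions past the threshold, named by the linked gene (horizontal axis); circles are replicate 1 and triangles replicate 2. Knockout points lie above wild-type points at 8 regions, and below them at Lpar5, where wild type has 42 and 42 and the knockout 23 and 13.

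These calls changed when a library was left out and when fold enrichment replaced pileup. Without wild-type replicate 1 or wild-type replicate 2, no region was called, between genes or anywhere else. Without knockout replicate 1 or knockout replicate 2, fewer were called than with all 4 libraries, between genes and over all 8698. Each such fit left 1 genotype with a single library. All 9 kept their direction each time, which was fixed in advance because the genotypes did not overlap at any of them. The log2 change at Gabrg1 was 1.46 without wild-type replicate 1 and 1.63 without wild-type replicate 2, and at Irs2 1.25 and 1.54. Log2 fold enrichment, which divides the pileup by the local background, was chosen after seeing the data. On that scale none was called, 0 of 947 and 0 of all 8698. At an unadjusted p below 0.05 (limma) there were 85 of the 947 and 600 of all 8698. The recovered local background moved with the pileup: at Gabrg1 it was 0.787 and 1.08 in wild type and 2.18 and 1.58 in the knockout, and at Irs2 1.04 and 1.40 against 2.60 and 2.36. Its part in the result was not tested. In fold enrichment, Gabrg1 had 5.60 and 6.26 against 11.9 and 10.1, and Irs2 5.88 and 7.08 against 9.44 and 11.0. Scaled by the lowest background instead of the median, 2 were higher and 4 lower, and Gabrg1, Irs2 and Lpar5 remained. Over all 8698 regions, 3 were then higher and 14 lower.

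The next lowest regions did not pass. Near Rere, a nuclear receptor corepressor gene, pileups were 20 and 23 in wild type and 11 and 8 in the knockout (log2 change -1.03, adjusted p = 0.102, limma). Near Kcnrg, within the non-coding gene Dleu2, they were 17 and 21 against 9 and 8 (log2 change -0.99, adjusted p = 0.126). Near Spsb2, an adaptor of a ubiquitin ligase on chromosome 6, as is Lpar5, they were 25 and 41 against 15 and 17 (log2 change -0.88, adjusted p = 0.131). Near Gm38664 they were 37 and 36 against 16 and 26 (log2 change -0.73, adjusted p = 0.181). In all 4 both knockout libraries stood below both wild-type libraries, as at 17.3% of all 8698 regions on the centred scale. These 4 were picked by their p-value from the same libraries.

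As a whole, the 947 regions were shifted slightly towards the knockout on the median-centred scale. Their median log2 change was 0.09, with 601 of them (63.5%) above 0, against 0.02 and 53.5% over all 8698. Both knockout libraries stood above both wild-type libraries at 274 (28.9%) and below at 121 (12.8%). The background for the same counts over all regions was 21.4% and 17.3%. The median was 0.08 at 1 to 5 kb, 0.08 at 5 to 20 kb, 0.10 at 20 to 50 kb and 0.09 at 50 to 100 kb. Gene ends had a median of -0.0028, intragenic regions 0.06 and regions beyond 100 kb 0.10, so a shift of this size was not particular to the set. The sign depended on the scaling: scaled by each library's lowest background, the median was -0.14, beside -0.21 over all regions. Changing the scaling moves the log2 change of every region by the same amount. It therefore could not alter the set's place relative to all regions.

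**Figure D5:**
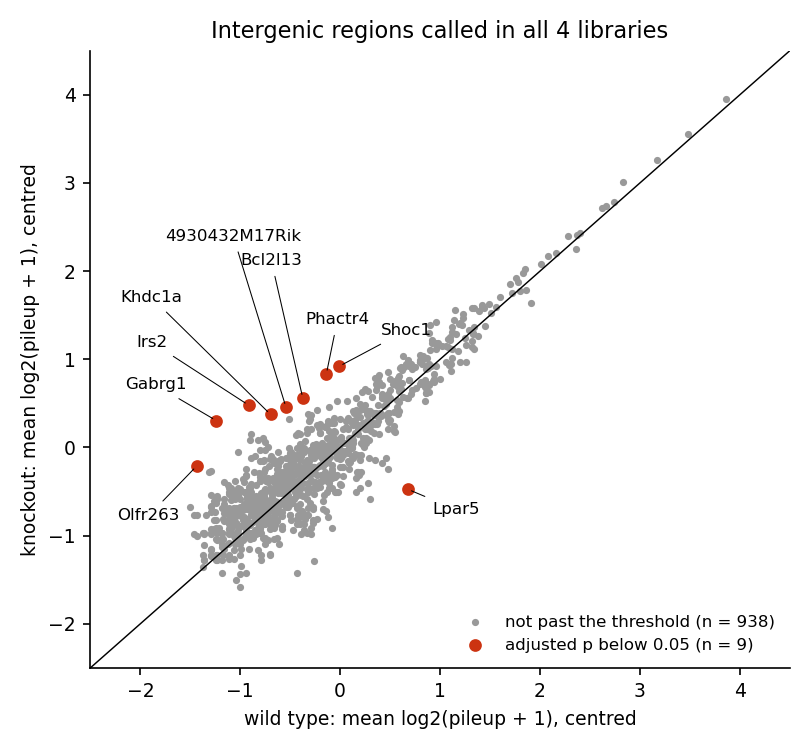
Mean log2(pileup + 1) of the 2 knockout libraries (vertical axis) against that of the 2 wild-type libraries (horizontal axis), each library centred on its median over all regions called in 4 libraries, for the 947 intergenic regions called in all 4; the line marks equality and the 9 regions past the threshold are named. Lpar5 lies below the line and the other 8 lie above it.

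A measure that needs no centring is the level of these regions relative to gene ends within a library. The median log2(pileup + 1) of regions between genes minus that of gene ends was -0.51 and -0.48 in wild type and -0.33 and -0.38 in the knockout. The mean was -0.49 ± 0.02 (SD, n = 2) against -0.36 ± 0.03 (SD, n = 2), a difference of 0.135 that was 0.17 at 1 h and 0.10 at 2 h. The genotypes did not overlap, but with 2 libraries each the exact two-sided permutation test cannot go below its value here, p = 0.33. The share of peaks that fell in these regions was 12.3% and 12.6% in wild type and 12.8% and 12.8% in the knockout, a difference of 0.32 percentage points (0.43 at 1 h and 0.22 at 2 h; exact permutation p = 0.33), which was 0.20 without wild-type replicate 1. The median distance of called regions to a gene end was 14804 and 14772 bases against 14995 and 15027 bases, a difference of 223 bases (exact permutation p = 0.33). The share and the distance rest on the same calls that the rule used. Of the 1798 regions, 145 entered through the knockout alone and 85 through wild type alone, so neither difference is independent of the rule. Of these 3 measures, none could reach a p below 0.33, before or after adjustment.

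Some erythroid genes had regions in this window, beside 1405 of all 21631 protein-coding genes. Of 41 genes of the erythroid programme, 7 were linked to 9 regions, of which 4 were called in all 4 libraries and 1 in the knockout only, and none passed the test (median log2 change -0.14, 1 of 4 above 0, against 0.02 over all regions). Hbb-y, the embryonic beta-like globin gene nearest to the locus control region, had a region 7892 bases away on its start side (chr7:103860926-103861272). Its pileups were 23 and 28 in wild type and 19 and 20 in the knockout, a log2 change of -0.28 (adjusted p = 0.797). Rhag, part of the Rh membrane complex, had 31 and 38 against 31 and 24 at 4287 bases (log2 change -0.24, adjusted p = 0.78). Add2, a membrane skeleton gene, had 25 and 21 against 22 and 20 (log2 change -0.04, adjusted p = 0.978). Kel, the Kell blood group gene, had the knockout-only region, at 14 and 12. Over all 1798 regions, 8.07% were knockout only and 4.73% wild type only. Those shares stand beside the counts of this list and of each list below, on which no test was run.

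Of 43 haematopoietic transcription factors and cofactors, 13 were linked to 18 regions: 9 called in all 4 libraries, 1 in the knockout only (Klf6, 11 and 14) and 2 in wild type only (Ets2 and Myb). None of the 9 passed the test, and their median log2 change was 0.02 with 6 above 0. Myb, which keeps progenitors dividing, had a region at chr10:21221289-21222036, 60678 bases away on the start side. Its pileups were 15 and 18 in wild type and 23 and 20 in the knockout (log2 change 0.45, adjusted p = 0.651). Nearer to Myb, at 35801 bases, chr10:21196648-21196922 was called at 9 and 17 in wild type only. Lmo2, a bridging factor of the GATA1 and TAL1 complex, had a region at 63924 bases that held the start of the lncRNA Gm39895, with 14 and 23 against 15 and 21 (log2 change 0.06, adjusted p = 0.97).

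Tal1, the basic helix-loop-helix factor of that complex, had 2 weak regions past its end. At 3207 bases the second wild-type and the first knockout library each gave 19, and at 3854 bases the second libraries gave 19 and 11. Runx1, whose protein is named with CHD7 in the study's title, had 1 region, 57829 bases away on its start side (chr16:92883761-92884045), called only in the 1 h libraries at 13 and 8. Gata2, which GATA1 replaces as erythroid cells mature, had 1 at 4102 bases, called at 12 in the first wild-type library and at 18 and 19 in the knockout. These calls split the libraries in ways other than genotype. Gata1 and Kit had no region by the rule.

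The strongest regions of the list had higher pileups. Cbfa2t3, a corepressor, had 48 and 44 in wild type against 39 and 43 in the knockout at 1477 bases (log2 change -0.08, adjusted p = 0.929) and 39 and 40 against 42 and 30 at 20861 bases (log2 change -0.07, adjusted p = 0.951). Foxo3, which guards red cell precursors against oxidative stress, had 51 and 48 against 45 and 50 (log2 change 0.02, adjusted p = 0.981). Gfi1b, an erythroid and megakaryocytic repressor, had 44 and 41 against 45 and 50 at 11274 bases (log2 change 0.24, adjusted p = 0.687).

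Cytokine signalling genes held the one list region past the threshold. Of 25 genes, 9 were linked to 17 regions, 7 of them in all 4 libraries. In the knockout only there were 2 (Irs2 and Spred1), and in wild type only 4 (Cish, Jak2, Pim1 and Spry1). The shares over all 1798 regions were 8.07% and 4.73%, and over all 11994 they were 3.46% and 2.88%. These list counts are small and were not tested. Of the 7 tested, 1 was higher in the knockout, none was lower, and the median log2 change was -0.10 with 3 above 0. Irs2 had 4 regions that did not move together. Beside the one at 83311 bases described above, chr8:11084078-11084350 lay on the same side and was called in the knockout only, at 11 and 11. On the other side, a region at 38474 bases had 15 in the second wild-type library and 12 and 12 in the knockout, and one at 60049 bases had 13 and 26 against 15 and 10 (log2 change -0.47, adjusted p = 0.651).

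Jak2, the kinase of the EPO receptor, had its wild-type-only region 14629 bases away on the start side, at 14 and 10. Cish, a feedback inhibitor of the same pathway, had 8 and 9 in wild type only at 10232 bases. Socs3, another feedback inhibitor, was called in all 4 libraries at 15 and 28 against 18 and 17 (log2 change -0.14, adjusted p = 0.929). Pim1, a survival kinase, had 12 and 14 in wild type only at 52219 bases, and 11 and 11 against 18 and 13 at 4837 bases (log2 change 0.52, adjusted p = 0.603). Spry1, an inhibitor of receptor kinase signalling, had 10 and 12 in wild type only, and a second region called in 3 libraries. The wild-type-only pileups of these genes were within 3 fragments of the wild-type-only medians of 11 and 13, apart from Cish, which was lower.

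Among 31 chromatin remodellers and modifiers, 4 genes were linked to 9 regions, 6 in all 4 libraries and 2 in the knockout only (Chd2 and Chd9), and none passed (median log2 change 0.04, 3 of 6 above 0). Chd2 had 5 regions between 16903 and 86529 bases away. The strongest, at 76775 bases, had 59 and 74 in wild type and 64 and 52 in the knockout (log2 change -0.11, adjusted p = 0.87). The Chaserr start came next, followed by 23 and 28 against 23 and 23 at 53614 bases, and 17 and 22 against 13 and 13 at 65326 bases (log2 change -0.46, adjusted p = 0.653). The farthest was called in the knockout only, at 10 and 9. Tet2, a DNA demethylase, had 52 and 42 against 58 and 45 at 78261 bases (log2 change 0.21, adjusted p = 0.73).

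Cell cycle genes had 7 regions at 7 of 27 genes, 3 of them in all 4 libraries, none in 1 genotype only, and none past the test (median log2 change -0.11, 1 of 3 above 0). Ccne1, which encodes cyclin E1, had 59 and 81 against 55 and 66 at 12861 bases (log2 change -0.11, adjusted p = 0.865). Cdkn1b, an inhibitor of cyclin-dependent kinases, had a region at the start of the lncRNA Lockd with 29 and 30 against 31 and 26 (log2 change 0.03, adjusted p = 0.982).

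Markers of other blood lineages had regions too. Granulocyte and macrophage genes had 11 at 5 of 18 genes, 5 in all 4 libraries and 1 in wild type only (Fcgr3). The strongest, near the receptor gene Csf2ra, had 63 and 64 against 57 and 55 (log2 change -0.10, adjusted p = 0.894), and Cebpe, a granulocyte factor, had 28 and 30 against 39 and 34 (log2 change 0.40, adjusted p = 0.532). Megakaryocyte genes had 3 at 2 of 16 genes: Pf4, which encodes platelet factor 4, had 34 and 38 against 36 and 36 (log2 change 0.08, adjusted p = 0.938), and Mmrn1 had 1 in wild type only, at 9 and 14. Mast cell genes had 4 at 4 of 11 genes, with Cpa3, a mast cell protease gene, at 32 and 29 against 27 and 26 (log2 change -0.11, adjusted p = 0.928). Lymphoid genes had 1, at Gata3, called in 3 libraries. Stem and progenitor genes had 5 at 3 of 16 genes, and Cd34 had 12 and 17 against 23 and 17 at 15192 bases (log2 change 0.52, adjusted p = 0.604) and 10 and 14 against 9 and 12 at 58961 bases (log2 change -0.09, adjusted p = 0.956). Housekeeping genes had 7 at 3 of 18 genes, where Actb, which encodes beta-actin, had 26 and 31 against 22 and 23 at 12950 bases (log2 change -0.24, adjusted p = 0.814). No region of these 6 lists passed the test.

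Some genes had many regions. At Gm40363, 6 regions followed each other on chromosome 6 from 47739831 to 47763739, with starts 4271, 4355, 4323, 4955 and 5387 bases apart, and all 6 were called in all 4 libraries. Their pileups ran from 41 to 63 in wild type and from 42 to 75 in the knockout, on a local background of 6.62 to 14.1 fragments, and their log2 changes were 0.06 to 0.46 with adjusted p-values of 0.152 to 0.949. Whether reads of near-identical copies were shared among these evenly spaced regions was not tested, so their values are uncertain. Mid1, at the edge of the region shared by the X and Y chromosomes, had 6, with 83 and 93 against 88 and 81 at the strongest (log2 change 0.02, adjusted p = 0.973). Gm15319 and Zfp825 had 6 each and lie in families of similar genes, where this was not tested either. At Gm15319 the strongest had 86 and 100 against 94 and 79 (log2 change -0.02, adjusted p = 0.973).

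Genes with 5 regions were Chd2, Pisd, Gm40035, Rpia and Zfp217. The strongest of Pisd, a gene of phospholipid synthesis, had 77 and 72 in wild type and 84 and 72 in the knockout (log2 change 0.14, adjusted p = 0.789). The strongest of Rpia, an enzyme of the pentose phosphate pathway, had 33 and 39 against 42 and 24 (log2 change -0.09, adjusted p = 0.937), and 2 of its 5 lay within the immunoglobulin kappa locus. Zfp217, a zinc finger gene, had 21 and 20 against 22 and 15 at its strongest and 1 region called in wild type only, at 15 and 13, with its middle 1284 bases from that one. In these clusters, too, no region passed the test.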

How the data were processed

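ATAC-seq peaks of 4 libraries were used. Per the labels and peak names, the authors called peaks in each library alone with MACS2 on GRCm38; the submitters' processing notes list Bowtie2 2.2.1 and MACS2 2.1.0. The sources used here do not give the threshold, duplicate removal, read shift, control or blacklist. The deposited lists give, per peak, a fold enrichment (a ratio), −log10 p and −log10 q, a whole-number score and the summit's offset. Peaks on Y (10 to 15 per list) and the mitochondrial genome (2 per list) were left out. Pileup was recovered from the deposited fold enrichment, (pileup + 1) / (background + 1), and the Poisson −log10 p (tolerance 0.001), for all peaks.

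From these values, regions were merged, placed and compared as the report describes (Python 3.11.15, R 4.3.3, limma 3.58.1; pseudocount 1, trended eBayes, genotype only). Merging was checked with bedtools 2.31.1, and recovery and the fit were tested on simulated data. The permutation tests used the 6 assignments of genotype labels. Same-numbered libraries share a labelled time; with 2 pairs, the replicate differences of the genotypes correlated at 0.00181 over 8698 regions.

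The members and lists were chosen with earlier results of these data known. Regions named are the 10 strongest, the 5 strongest called in each genotype only, every region past the threshold and the 5 with the smallest p in each direction, up to 4 of each list (the most telling of these in the text), those of fixed globin and regulator genes, genes with the most regions, and the 3 on each side of the distance limits. lncRNA and microRNA sites were chosen after their values were seen. Alternatives were another centring, pseudocount, q threshold, distance limit, list length and overlap, a replicate block, and leaving out each library. Motifs at region summits were not analysed here. Some listed regions are not reported here.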

Additional observations from a re-analysis of the deposited data

How the results depend on the processing

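The 8 higher and 1 lower regions became 9 and 1 with the replicate block (all 9 still called) and 9 and 1 when centred on gene ends; a pseudocount of 5 gave 8 and 1. When each library's peak needed a −log10 q of 5 or more, 8 were higher and 0 lower, since Gabrg1, Olfr263 and Lpar5 then had no value; the other 6 were still called. Scaling by the lowest background gave 2 higher and 4 lower, with 3 of the 9 still called, and the median log2 change of the 947 regions turned to -0.1435. Over all 8698 regions that scaling gave 3 higher and 14 lower. Without 1 library, fewer or none were called, in the set and over all regions. On log2 fold enrichment, chosen after seeing the data, 0 were higher and 0 lower, as over all 8698 regions. Leaving out regions with a non-coding start or tRNA gene, also chosen after seeing the data, gave 8 and 1 of 843. All 9 kept their direction under every one of these settings that gave them a value. For leaving out 1 library this was fixed in advance, since the genotypes did not overlap at any of the 9. Knockout-only and wild-type-only counts were 50 and 36 when the calling genotype's peaks needed a −log10 q of 5 or more. Without 1 library, when a single library then stands for its genotype, they ran from 209 to 546 and from 136 to 326, and the wild-type-only count was the larger without wild-type replicate 1 (209 against 326). Lists of equal length and shared summits within 250 bp kept both counts within 1.5 times. The genotype differences in peak share, distance and level relative to gene ends kept their sign in all settings run. For leaving out 1 library this too was fixed in advance, since the genotypes did not overlap in any of these measures. Over all 8698 regions, the replicate block moved the calls from 15 higher and 2 lower to 19 and 2. Where an alternative changed a result, the cause was not tested. In data simulated with a set spread, not one estimated from these libraries, the fit recovered 34% of 2-fold changes with 8 false calls. Calls in small numbers are uncertain.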
